A study of Mus musculus with 15 samples.

Results

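The genes described here are those of the mitochondrial genome, taken as every gene of the count table whose mouse symbol starts with mt-. The name table held 37 such genes, and 21 of them were among the 34259 genes of the count table. These 21 were 13 genes of proteins, 2 ribosomal RNA genes and 6 transfer RNA genes. The proteins were 7 subunits of respiratory complex I, 1 of complex III, 3 of complex IV and 2 of complex V. The other 16 transfer RNA genes were not among the rows of the table. Of the 21 members, 16 had a count in each of the 15 libraries, and the same 16 passed the filter on low counts and were tested: all 13 genes of proteins, both ribosomal RNA genes and mt-Tp. The remaining 5, mt-Tl1, mt-Tq, mt-Tm, mt-Tc and mt-Th, had between 1 and 17 counts over all 15 libraries together and were not tested.

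All libraries were bulk RNA-seq of GL261, a mouse glioma cell line labelled wild type, with 3 libraries in each of 5 groups at day 6. The group non-SP was made of untreated cells that the labels call non-SP. The other 4 groups started from cells labelled Hoechst-CD133+ and all received a cytokine cocktail whose content the labels do not give. Of these, PBS had buffer and no hydrogel, while D-gel@NP, D-gel@GSNP and L-gel@GSNP were grown in hydrogels that the labels call chiral. Cells of the 3 hydrogel groups were loaded into the gel on ice for 20 minutes, a step that the other groups did not have. All groups received blank medium on day 2 and again on day 4, and all libraries carry the same batch label. The starting cells and the cocktail therefore differ together between PBS and non-SP and cannot be told apart. Each hydrogel group likewise differs from PBS in the gel, the GSNP or NP of its label and the time on ice together. Against non-SP, the starting cells and the cocktail differ as well. These cannot be told apart either. Nothing in the labels says that the 3 libraries of a group came from separate cultures, so the p-values measure the spread between these libraries, which may be technical.

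The mitochondrial genome is a small circle that is copied and transcribed inside the organelle. Both of its strands are read as long transcripts, and most messenger and ribosomal RNAs are freed by cutting out the transfer RNAs that lie between them. The proteins it encodes are core subunits of the respiratory chain and of ATP synthase, and every other protein of these complexes, as well as the enzymes that transcribe, cut and translate the mitochondrial RNA, is encoded in the nucleus.

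Several members have near-identical copies in the nuclear genome, and the sequences are shown because they decide how well reads can be assigned to a member. In the transcripts of GENCODE release M21, mt-Co2 and the pseudogene Gm28661 on chromosome 1 had no differing base over 681 aligned bases, and their first 120 bases were the same.
mt-Co2: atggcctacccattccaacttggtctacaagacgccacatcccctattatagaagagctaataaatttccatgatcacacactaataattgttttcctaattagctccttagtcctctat
Gm28661: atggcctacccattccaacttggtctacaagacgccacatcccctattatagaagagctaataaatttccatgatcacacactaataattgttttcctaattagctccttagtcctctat

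The copy of mt-Nd3, Gm28438, differed at 1 base over 345 aligned bases. The differing base is in capitals, counted from the gene's first base, and the change from member to copy is T3C.
mt-Nd3: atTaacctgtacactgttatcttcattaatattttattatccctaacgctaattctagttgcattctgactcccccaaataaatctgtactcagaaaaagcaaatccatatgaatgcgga
Gm28438: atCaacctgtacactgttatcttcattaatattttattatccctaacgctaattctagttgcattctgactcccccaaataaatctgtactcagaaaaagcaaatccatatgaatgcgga

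By contrast, mt-Co1 and its closest full-length copy, Gm13340 on chromosome 2, were 97.6% identical over 1545 bases. Within the first 120 bases they differ by C54A, A60G and G87A, again in capitals.
mt-Co1: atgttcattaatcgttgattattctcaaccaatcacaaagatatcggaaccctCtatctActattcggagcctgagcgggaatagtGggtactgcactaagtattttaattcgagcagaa
Gm13340: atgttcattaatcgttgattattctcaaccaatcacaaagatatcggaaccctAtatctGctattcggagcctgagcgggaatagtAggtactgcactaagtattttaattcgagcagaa

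The fourth kind of member is the transfer RNA for proline, mt-Tp, the only transfer RNA gene with more than a few counts. Its 67 bases found no nuclear copy in the transcripts, and the anticodon is in capitals.
mt-Tp: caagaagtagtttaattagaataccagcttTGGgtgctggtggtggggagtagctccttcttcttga

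In all, 5 members had at least 99% of their length in a nuclear copy at 99% identity or more: mt-Co2, mt-Atp6, mt-Co3, mt-Nd3 and mt-Nd4l. The share was 63.6% for mt-Nd4, 31.3% for mt-Co1, 21.1% for mt-Atp8 and 0 for each of the other members of protein or ribosomal RNA. The copies of the 5 members took between 40.6% and 63.3% of the counts of member and copy together. Gm13340 took 0.06% of the counts of the mt-Co1 pair, and Gm28439 took 1.4% of those of the mt-Nd4 pair. For mt-Atp8 the closest copy was Gm10925, also the copy of mt-Atp6, which matches only 43 bases of mt-Atp8. Gm10925 had 62238 counts against 755 for mt-Atp8, or 98.8% of that pair. Only annotated transcripts were searched for copies. Reads left out for matching several places would be in none of these counts, so the shares do not measure how many were ambiguous. How the authors treated reads that match several places was not given in the sources used here. The counts of these 5 members are therefore uncertain, as are those of mt-Nd4, mt-Co1 and mt-Atp8. The strand setting of the counting was not given either. mt-Nd6 and mt-Tp, which lie on the opposite strand to the other tested members, are therefore uncertain in that respect too. The overlapping pairs mt-Atp8 with mt-Atp6 and mt-Nd4l with mt-Nd4 lie on the same strand. How reads in overlapping genes were counted was not given, which leaves these pairs uncertain as well.

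Library totals ran from 16626413 counts (D-gel@NP 1) to 98102794 (L-gel@GSNP 3). Among markers of other cells, 10 of 12 macrophage and microglia genes were in the table, and their summed level was at most 11.3 CPM (counts scaled to the library total) in non-SP, 66.7 to 74.4 in PBS, 11.9 to 12.9 in D-gel@GSNP, 38.3 to 45.1 in L-gel@GSNP and 32.6 to 40.5 in D-gel@NP. The sum was low in non-SP and D-gel@GSNP, the groups in which the share of counts on members was low too. Its highest genes were Cd68 (means of 6.51 CPM in non-SP and 42.4 in PBS) and Csf1r (2.46 and 24.6). Itgam, P2ry12, Ptprc, Adgre1 and Aif1 were higher in PBS too, but with PBS means of at most 2.07 CPM. Fcer1g (0.303 and 0.165) and Tmem119 (0.131 and 0.0497) were lower in PBS, and Tyrobp was at 0 in the PBS libraries. The 4 of 5 fibroblast genes in the table, with Dcn the highest, summed to 692.9 to 720.8 CPM in non-SP, 1291 to 1366 in PBS, 688.2 to 712.1 in D-gel@GSNP, 1309 to 1468 in L-gel@GSNP and 1454 to 1511 in D-gel@NP. The T cell, endothelial, neuron, oligodendrocyte and red cell lists each summed to at most 6.37 CPM in any library. The part of these genes in the results was not tested. Of the 6 genes that mark the line, Vim lay between 891.9 and 1160 CPM. Cd44 was at 522.6 ± 5.9 CPM (SD, n = 3) in non-SP, 1156 ± 48 in PBS, 539.4 ± 7.0 for D-gel@GSNP, 931.6 ± 30 for D-gel@NP and 890.7 ± 34 for L-gel@GSNP, high where the share of counts on members was high. Nes went the other way, from 3.70 ± 0.15 CPM in non-SP and 3.38 ± 0.22 in D-gel@GSNP to 1.24 ± 0.53 in PBS. Gfap and S100b were at most 0.304 and 1.19 CPM in any library, and Prom1, the gene of CD133, lay between 0 and 0.307 CPM in all 15 libraries, those labelled Hoechst-CD133+ included. In bulk RNA, fewer cells of a type and less RNA per cell cannot be told apart.

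Per unit of length, the 13 genes of proteins fell into a high and a low tier. On the deposited FPKM scale (fragments scaled to gene length and library total), mt-Co1, the catalytic subunit of cytochrome c oxidase (complex IV), was highest with a mean of 10670.3 FPKM over the 15 libraries. It was followed by mt-Nd1 (7147), mt-Cytb (5596), mt-Nd2 (4139), mt-Nd4 (2028), mt-Nd5 (1836) and mt-Nd6 (1493). The 6 genes that lie next to each other from mt-Co2 to mt-Nd4l had means of only 5.77 to 168.2 FPKM, with a median of 53.6 against 4139 for the 7 others. The lowest was mt-Atp8, an ATP synthase subunit of 204 bases, at 5.77 FPKM.

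The tiers did not overlap in any group mean: the lowest mean of the high tier was mt-Nd6 in non-SP with 1117 FPKM, and the highest of the low tier was mt-Co2 in PBS with 254 FPKM. Within the low tier are all 5 members with a near-identical nuclear copy, and their copies had similar means, from 27.2 FPKM for Gm10222 to 138.7 FPKM for Gm10925. The sum of a member and its copy stayed below the high tier, but any reads dropped for matching several places would be in neither. The part of the copies in the low tier was not tested. The 2 ribosomal RNAs, which build the mitochondrial ribosome, had means of 198 FPKM (mt-Rnr1) and 317 FPKM (mt-Rnr2), below every gene of the high tier, and mt-Tp had 545 FPKM. How the RNA was selected before sequencing was not given in the sources used here.

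**Figure D1:**
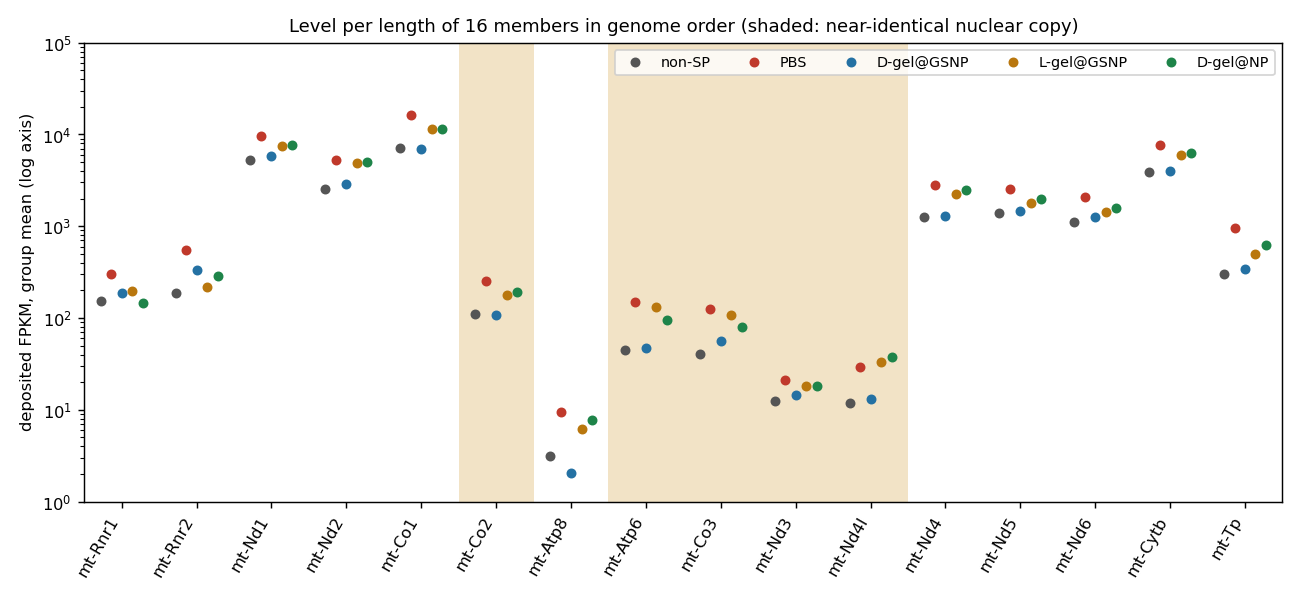
Mean deposited FPKM of each of the 16 tested members in each group (log axis), in the order of the mitochondrial genome. Shaded columns mark the 5 members whose length lies almost wholly in a near-identical nuclear copy. The genes from mt-Co2 to mt-Nd4l sit at or below 254 FPKM in each group mean, and the 7 other genes of proteins at or above 1117 FPKM.

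The PBS group, Hoechst-CD133+ cells with the cocktail and no gel, was compared with untreated non-SP cells. All 16 tested members were higher in PBS, with no overlap between the groups for any of them. The median log2 difference of the members was 1.16, a 2.24-fold difference, and the members ranged from 0.75 to 1.72, while the median over all 17497 tested genes was 0.02. A call means a Benjamini-Hochberg adjusted p under 0.05 over all tested genes in edgeR's quasi-likelihood test, and in this comparison 27.6% of all genes were called higher and 53.7% were called in either direction. Groups did not overlap for 61.2% of all tested genes.

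For complex IV, mt-Co1 had 10748, 11325 and 10988 CPM in the non-SP libraries and 26931, 24583 and 22803 CPM in the PBS libraries. The lowest PBS library was above the highest non-SP library by more than the spread of either group. The fitted log2 difference was 1.17 (SE 0.058, edgeR adjusted p = 2.47e-13), a 2.25-fold difference. The other complex IV members, mt-Co2 and mt-Co3, differed by 1.20 and 1.60, with standard errors of 0.175 and 0.238.

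Cytochrome b, the only mitochondrially encoded subunit of complex III, gave 4419, 4676 and 4508 CPM for mt-Cytb in non-SP and 9339, 8696 and 8420 CPM in PBS, a log2 difference of 0.96 (SE 0.067, edgeR adjusted p = 5.74e-11). In complex I, which takes electrons from NADH, mt-Nd1 had 5118, 5111 and 5032 CPM in non-SP and 9634, 8935 and 8700 CPM in PBS. The differences of the complex I genes ran from 0.75 for mt-Nd3 to 1.29 for mt-Nd4l, and the 5 of the high tier from 0.84 for mt-Nd1 to 1.16 for mt-Nd4. The 2 ATP synthase genes, mt-Atp6 and mt-Atp8, differed by 1.72 and 1.57. Their standard errors, 0.245 and 0.332, were several times those of the high tier.

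The largest differences outside the low tier were those of mt-Tp and mt-Rnr2. mt-Tp had 20.6, 20.95 and 19.4 CPM in non-SP and 65.2, 63.2 and 63.7 CPM in PBS, a log2 difference of 1.66 (SE 0.086, edgeR adjusted p = 4.34e-13). mt-Rnr2, the large ribosomal RNA, had 290.0, 299.8 and 295.2 CPM in non-SP and 844.8, 783.4 and 994.8 CPM in PBS, a log2 difference of 1.57 (SE 0.092, edgeR adjusted p = 3.57e-12). In neither gene did a PBS library come near the non-SP range. mt-Rnr1, the small ribosomal RNA, had 138.2, 157.2 and 142.4 CPM in non-SP against 230.2, 206.3 and 432.0 CPM in PBS, and PBS 3 stood apart from the other PBS libraries. Its log2 difference was 0.99, and 0.58 without PBS 3, still called.

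**Figure D2:**
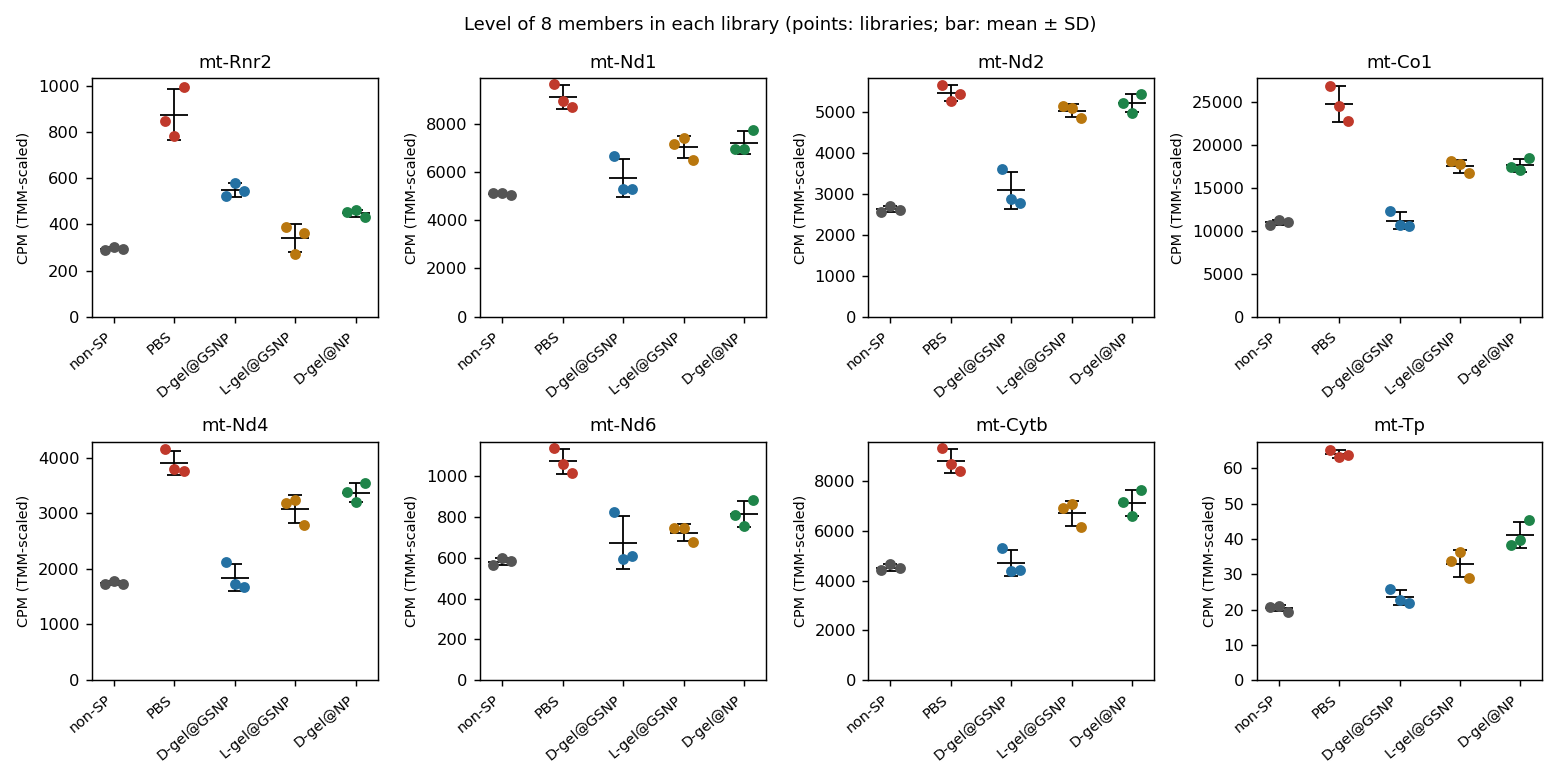
CPM of 8 members in each of the 15 libraries (linear axes from 0); points are libraries, the horizontal bar is the group mean and the whiskers are 1 SD. The PBS libraries are the highest in each panel for mt-Rnr2, mt-Nd1, mt-Co1, mt-Nd4, mt-Nd6, mt-Cytb and mt-Tp. In mt-Nd2 the PBS range (5276 to 5663 CPM) overlaps that of D-gel@NP (4986 to 5438 CPM), and in mt-Rnr2 D-gel@GSNP lies above non-SP, L-gel@GSNP and D-gel@NP.

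As a share of all gene counts, the 13 genes of proteins took 2.77%, 2.87% and 2.79% in the non-SP libraries and 6.24%, 5.77% and 5.54% in PBS. mt-Co1 alone took 1.07% to 1.13% in non-SP and 2.30% to 2.70% in PBS. The 2 ribosomal RNA genes took 0.0439% ± 0.0014 (SD, n = 3) in non-SP and 0.117% ± 0.024 in PBS, and the transfer RNA genes, nearly all of it mt-Tp, 0.00203% ± 0.00008 and 0.00645% ± 0.00008. The ratio of PBS to non-SP was 2.08 for the genes of proteins, 2.67 for the ribosomal RNAs and 3.17 for the transfer RNAs. Groups did not overlap in any of the 3 classes, and each exact permutation test gave p = 0.1, the smallest that 3 against 3 libraries allow (two-sided, and at least 0.1 after adjustment over 8 comparisons).

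**Figure D3:**
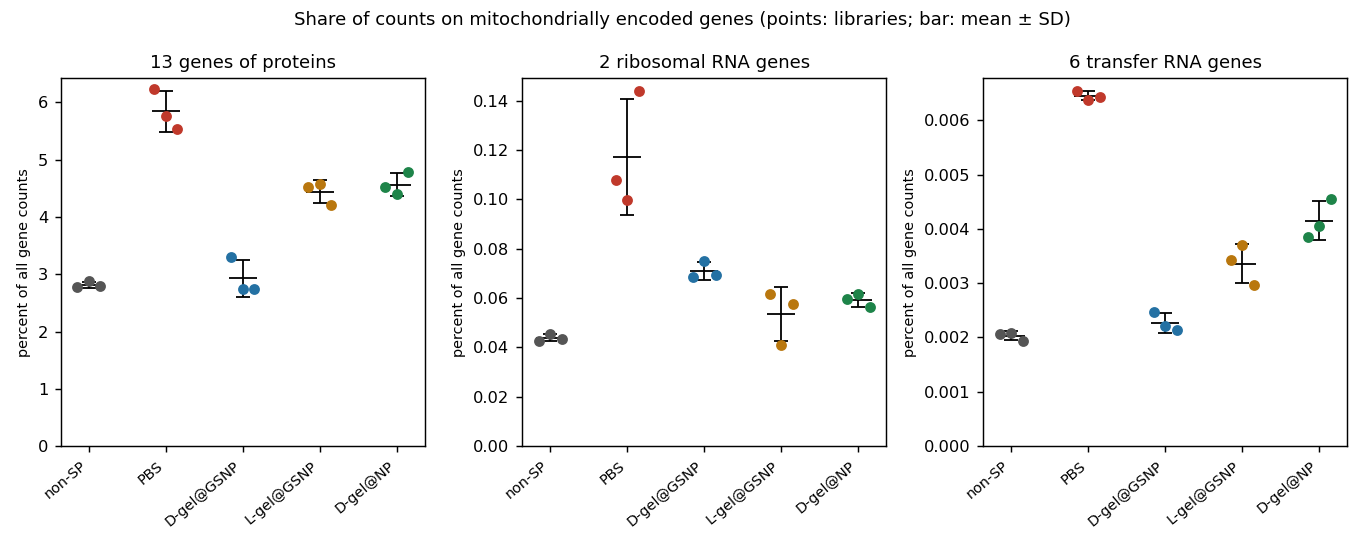
Share of all gene counts, in percent, on genes of proteins, ribosomal RNA genes and transfer RNA genes of the mitochondrial genome; points are libraries, bars are means and whiskers are 1 SD (n = 3). The order of the groups differs between panels: for the ribosomal RNAs D-gel@GSNP (0.0711%) is second to PBS (0.117%), and for the genes of proteins it (2.93%) lies next to non-SP (2.81%).

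Cells in D-gel@GSNP were then compared with PBS, which shares its libraries with the comparison above and with the other comparisons against PBS. All 16 tested members were lower in D-gel@GSNP, without overlap, where 27.5% of all genes were called lower and 55.0% in either direction, and where groups did not overlap for 61.0% of genes. The median log2 difference of the members was -0.99 (a 1.99-fold lower level), from -2.16 for mt-Atp8 to -0.48 for mt-Nd3, against -0.02 over all tested genes. mt-Co1 had 12364, 10685 and 10569 CPM in D-gel@GSNP, a log2 difference of -1.14 (SE 0.058, edgeR adjusted p = 3.34e-13). mt-Tp, with 25.8, 22.7 and 21.8 CPM, was lower by 2.73-fold (log2 difference -1.45, SE 0.084, edgeR adjusted p = 2.64e-12).

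The complex I genes of the high tier had smaller log2 differences than mt-Co1: the values were -1.08 for mt-Nd4, -0.66 for mt-Nd1, -0.82 for mt-Nd2, -0.72 for mt-Nd5 and -0.67 for mt-Nd6. mt-Rnr2 had 522.1, 580.5 and 542.3 CPM, a difference of -0.67 (SE 0.090). For mt-Rnr1 the difference was -0.65 (edgeR adjusted p = 0.0054), which shrank to -0.24 and was no longer called without PBS 3. That call was also lost with limma on log2(FPKM + 0.1) (-0.62) and, like that of mt-Nd4l (-1.11), with limma on all genes. All 3 tested RNAs that stay in the nucleus, Neat1, Malat1 and Kcnq1ot1, were lower in D-gel@GSNP than in PBS too (median -1.24), and their part was not tested. D-gel@GSNP 1 gave the highest value of its group for each of mt-Nd1, mt-Nd2, mt-Co1, mt-Nd4, mt-Nd5, mt-Nd6 and mt-Cytb and the lowest for mt-Rnr2.

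Against untreated non-SP cells, D-gel@GSNP differed little in the members, with mt-Rnr2 as the exception. The member was called higher with a log2 difference of 0.89 (SE 0.091, 95% interval 0.71 to 1.08, edgeR adjusted p = 1.79e-05), or 1.86-fold. Its D-gel@GSNP libraries (522.1, 580.5 and 542.3 CPM) all lay above its non-SP libraries (290.0, 299.8 and 295.2 CPM). In this comparison 0.103% of all genes were called higher, 0.314% lower and 0.417%, or 73 genes, in either direction, and 1 of the 16 tested members was among them. Each of 21 fits, the main test included, called mt-Rnr2, with log2 differences of 0.85 to 0.93 and an adjusted p of 0.0477 or less (the highest with limma on all genes). The number of all genes called moved by more than 1.5 times whichever of the 6 libraries was left out, and ranged from 6 without D-gel@GSNP 1 to 140 without D-gel@GSNP 3. The genes called higher made up 24.7% of those called, and 12.1% when libraries were scaled by their totals alone.

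The other 15 members were not called by the main edgeR test or by DESeq2. At an unadjusted p under 0.05, 6 of the 16 members were higher and 0 lower. Without D-gel@GSNP 3, mt-Nd2 (0.23) was called as well, at 0.30. Their median with mt-Rnr2 included was 0.18, against 0.03 for all genes, and mt-Co1 differed by 0.02 (95% interval -0.10 to 0.14), mt-Cytb by 0.06 (-0.08 to 0.20) and mt-Nd4 by 0.07 (-0.07 to 0.22). The widest interval was that of mt-Atp8, whose value was -0.59 (-1.36 to 0.18). Groups did not overlap for 6 of the 16 members, against 20.4% of all tested genes, and the 6 were mt-Rnr1, mt-Rnr2, mt-Nd1, mt-Nd2, mt-Co3 and mt-Tp, each higher in D-gel@GSNP. The share of counts on members was 3.37%, 2.82% and 2.82% in D-gel@GSNP and 2.82%, 2.92% and 2.84% in non-SP. That difference was 0.142 percentage points (exact permutation p = 0.8), and -0.0400 without D-gel@GSNP 1.

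**Figure D4:**
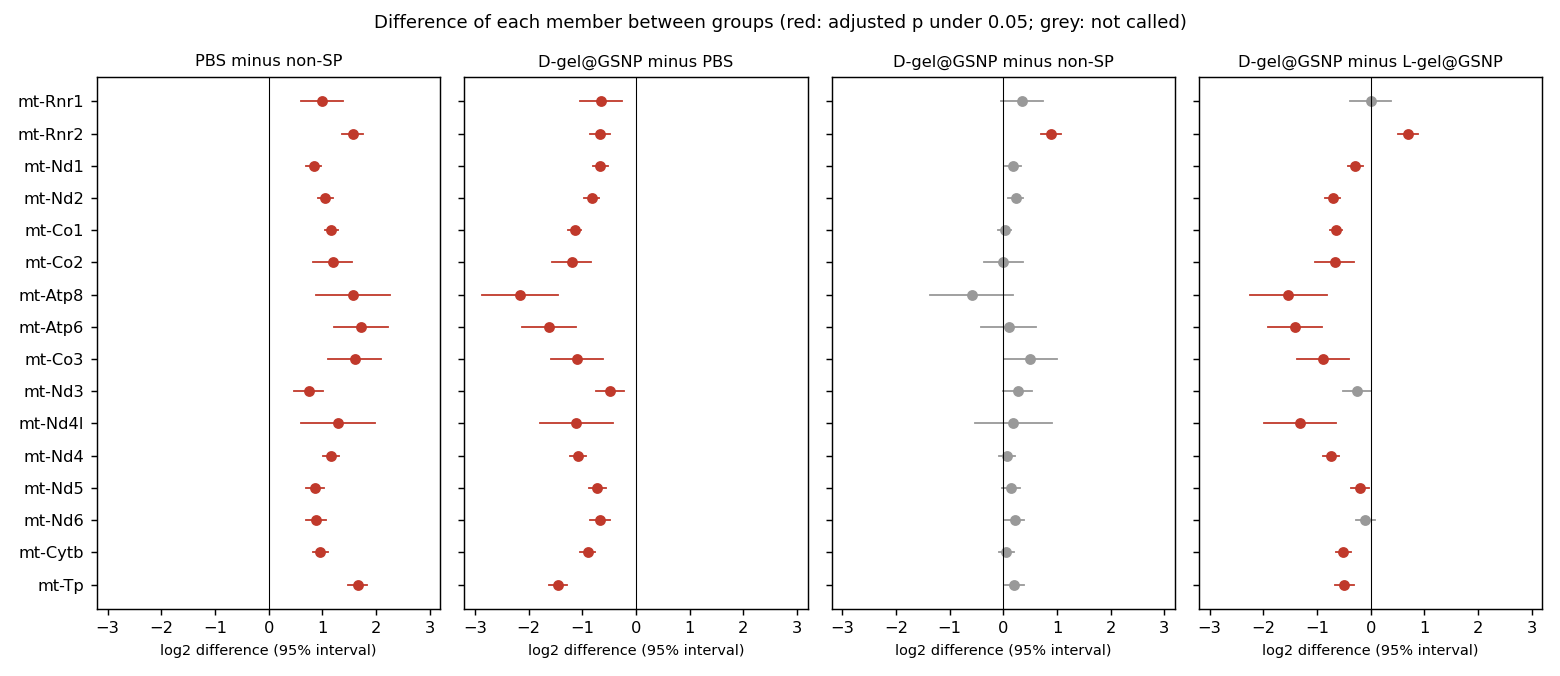
Log2 difference of each of the 16 tested members in 4 comparisons, with 95% intervals from edgeR's quasi-likelihood fit; red marks an adjusted p under 0.05. All members are right of 0 in PBS minus non-SP and left of 0 in D-gel@GSNP minus PBS, and mt-Rnr2 is the only called member in D-gel@GSNP minus non-SP (0.89) and the only one called higher in D-gel@GSNP minus L-gel@GSNP (0.69).

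The other hydrogel groups were compared with PBS as well. In L-gel@GSNP, 10 of 16 members were lower than in PBS (24.1% of all genes were called lower and 45.6% in either direction), with a median of -0.45. In D-gel@NP, 11 of 16 were lower (16.3% of all genes lower, 30.4% in either direction), with a median of -0.38. No member was called higher in either comparison by the main edgeR test or by DESeq2, and at an unadjusted p under 0.05 the number higher was 0 as well. In edgeR with no filter, mt-Nd4l was called higher in D-gel@NP than in PBS (0.38). Over all genes the medians were 0.001 and -0.005, and groups did not overlap for 52.4% and 39.8% of them, against 11 of the 16 members in each comparison. With upper-quartile scaling the called genes were split differently: the genes called higher made up 57.1% and 57.2% of all called genes, against 47.1% and 46.5% here.

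mt-Co1 had 18131, 17799 and 16706 CPM in L-gel@GSNP and 17420, 17065 and 18479 CPM in D-gel@NP. Both groups were below all PBS libraries and above all non-SP libraries, and the log2 differences from PBS were -0.50 and -0.49 (SE 0.058 each). mt-Rnr2 was lower by 2.57-fold in L-gel@GSNP (387.0, 273.0 and 360.6 CPM; log2 difference -1.36, edgeR adjusted p = 9.39e-11) and by 1.95-fold in D-gel@NP (451.8, 461.1 and 430.7 CPM; log2 difference -0.97, edgeR adjusted p = 6.14e-08). mt-Tp was lower by 1.95-fold and 1.55-fold.

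Outside the low tier, mt-Nd2, a complex I subunit of the membrane arm, was the exception in both groups. It had 5139, 5108 and 4841 CPM in L-gel@GSNP and 5215, 4986 and 5438 CPM in D-gel@NP, against 5663, 5276 and 5447 CPM in PBS. The log2 differences were -0.12 (95% interval -0.26 to 0.02) and -0.07 (-0.20 to 0.07), and neither was called. In L-gel@GSNP the members not called were mt-Nd2, mt-Atp8, mt-Atp6, mt-Co3, mt-Nd3 and mt-Nd4l, and in D-gel@NP they were mt-Nd2, mt-Co2, mt-Atp8, mt-Nd3 and mt-Nd4l. Apart from mt-Nd2, all of these belong to the low tier.

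Several calls depended on single libraries or on the fit. mt-Rnr1 in L-gel@GSNP against PBS (-0.64) was -0.24 without PBS 3 and -0.44 without L-gel@GSNP 2, and was then not called. In D-gel@NP against PBS it stayed called without PBS 3, but moved from -1.06 to -0.66. In that comparison the call of mt-Atp6 (-0.66) was lost without PBS 1 (-0.33), D-gel@NP 1 (-0.67) or D-gel@NP 2 (-0.45). The call of mt-Co3 (-0.66) was lost without PBS 2 (-0.31), D-gel@NP 1 (-0.66) or D-gel@NP 2 (-0.54). The call of mt-Nd4 (-0.21) was lost without PBS 1 (-0.16), D-gel@NP 1 (-0.20) or D-gel@NP 2 (-0.17), the smallest of these differences. mt-Co2 (-0.41, not called) was called without PBS 3 (-0.53) or D-gel@NP 2 (-0.73). With DESeq2, 9 members were called lower in each of the comparisons: the calls of mt-Atp6 and mt-Co3 in D-gel@NP and that of mt-Co2 in L-gel@GSNP were lost (log2 differences of -0.66, -0.66 and -0.52; DESeq2 adjusted p of 0.1, 0.1 and 0.09 to 1 digit). With limma on log2(FPKM + 1) these 3 calls were lost too, as were those of mt-Nd4 in D-gel@NP (limma adjusted p = 0.061) and mt-Rnr1 in L-gel@GSNP (limma adjusted p = 0.0635). Upper-quartile scaling ended the calls of mt-Nd4 (-0.17) and mt-Atp6 (-0.62) in D-gel@NP. In L-gel@GSNP, mt-Co3 (-0.21, not called) was -0.63 and called without L-gel@GSNP 3, and the call of mt-Co2 (-0.52) was lost without PBS 1 (-0.48) or PBS 2 (-0.43). Of the 3 RNAs that stay in the nucleus, 2 were higher in L-gel@GSNP than in PBS (median 0.68) and 1 in D-gel@NP (median 0.29), while the members called were lower; their part was not tested.

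Gel groups were next compared with each other. D-gel@GSNP and L-gel@GSNP differ by label in D against L. Of the 16 tested members, 12 were lower in D-gel@GSNP and 1 was higher, where 31.3% of all genes were called lower, 30.5% higher and 61.8% in either direction. The median was -0.58, against -0.04 for all genes, and groups did not overlap for 11 of 16 members and 67.3% of all genes. The 12 included mt-Co1 (-0.65, SE 0.058, edgeR adjusted p = 1.71e-09), mt-Nd2 (-0.70), mt-Nd4 (-0.74) and mt-Cytb (-0.51), and smaller differences in mt-Nd1 (-0.29) and mt-Nd5 (-0.20).

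mt-Rnr2 went the other way, with 522.1 to 580.5 CPM in D-gel@GSNP and 273.0 to 387.0 CPM in L-gel@GSNP. The groups did not overlap, and the log2 difference was 0.69 (95% interval 0.50 to 0.88, edgeR adjusted p = 6.9e-07), or 1.61-fold. mt-Rnr1 had a difference of 0.00 with an interval of -0.39 to 0.38, and mt-Nd6 one of -0.10 (-0.28 to 0.08). mt-Nd3 differed by -0.25 (-0.51 to 0.01). Without D-gel@GSNP 1, mt-Nd3 was -0.38 and mt-Nd6 -0.26, and both were then called. The difference of mt-Nd5 was -0.33 without the same library, and was lost without D-gel@GSNP 2 (-0.13), D-gel@GSNP 3 (-0.14), L-gel@GSNP 1 (-0.20) or L-gel@GSNP 2 (-0.18). In the low tier, mt-Co3 (-0.89) and mt-Nd4l (-1.31) were called, and without L-gel@GSNP 3 they stayed called at -0.47 and -0.62. The call of mt-Nd4l was lost with limma on all genes, and that of mt-Nd5 when only the 6 libraries were fitted. With upper-quartile scaling, library totals alone, the 1 CPM filter or limma, mt-Nd3 was called (-0.40 to -0.29), and upper-quartile scaling also called mt-Nd6 (-0.25). All 3 RNAs that stay in the nucleus were lower in D-gel@GSNP than in L-gel@GSNP (median -1.46), and their part was not tested.

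D-gel@GSNP and D-gel@NP carry the same D label and differ in GSNP against NP, terms that the labels do not spell out. Here too 12 of 16 members were lower in D-gel@GSNP and 1 was higher, where 29.6% of all genes were called lower, 28.8% higher and 58.4% in either direction. Groups did not overlap for 13 of 16 members and 62.5% of all genes. The median was -0.63, against -0.04 for all genes, and mt-Co1 differed by -0.66 (SE 0.058, edgeR adjusted p = 1.69e-09). mt-Nd4 (-0.87), mt-Tp (-0.82) and mt-Nd2 (-0.76) were lower by more than mt-Co1. The member that was higher was again mt-Rnr2, by 0.29 (0.10 to 0.48, edgeR adjusted p = 0.0082), a call that was lost with upper-quartile scaling (0.17) and with limma on FPKM values (0.23). The call of mt-Nd6 (-0.27) was lost without D-gel@GSNP 2 (-0.19), D-gel@GSNP 3 (-0.20) or D-gel@NP 3 (-0.22), and its difference was -0.44 without D-gel@GSNP 1. mt-Co3 (-0.44, not called) was called without D-gel@GSNP 3 (-0.66), and mt-Nd3 (-0.29, not called) without D-gel@GSNP 1 (-0.42) or D-gel@NP 1 (-0.38). mt-Co2 (-0.79) and mt-Nd4l (-1.48) stayed called without D-gel@NP 2, at -0.47 and -0.97. mt-Nd3 was also called with upper-quartile scaling, library totals alone, the 1 CPM filter or limma (-0.41 to -0.32), mt-Co3 with upper-quartile scaling, no filter or only the 6 libraries (-0.56 to -0.42), and mt-Rnr1 (0.42) with no filter or only the 6 libraries. All 3 RNAs that stay in the nucleus were lower in D-gel@GSNP than in D-gel@NP as well (median -1.26), and their part was not tested.

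Upper-quartile scaling shifted the median of all genes by -0.15 in D-gel@GSNP against L-gel@GSNP and by -0.12 against D-gel@NP, and the genes called higher then made up 38.1% and 38.6% of all called genes, against 49.4% and 49.3% here. Relative to the median of all genes, the members' medians were -0.54 and -0.59 under both scalings. A scaling shifts all genes of a comparison by nearly the same amount, so these relative values could hardly change and are no test of the scaling.

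D-gel@NP and L-gel@GSNP differ in both label terms. For 14 of 16 members no difference was called, and 2 were higher in D-gel@NP, where 11.1% of all genes were called higher, 8.33% lower and 19.5% in either direction. None was called lower by the main edgeR test or DESeq2, and 1 was lower at an unadjusted p under 0.05. In edgeR with no filter, mt-Rnr1 (-0.44), mt-Atp6 (-0.46) and mt-Co3 (-0.47) were called lower. That fit also called mt-Nd5 (0.14) and mt-Nd6 (0.16) higher. With only the 6 libraries fitted, mt-Rnr1 (-0.43) was called lower as well. Groups did not overlap for 3 of 16 members and 31.9% of all genes. The 2 called members were mt-Rnr2 (0.40, SE 0.091, edgeR adjusted p = 0.0032) and mt-Tp (38.2, 39.7 and 45.4 CPM against 33.7, 36.4 and 28.9; 0.33, SE 0.084, edgeR adjusted p = 0.0080). The call of mt-Tp was lost without L-gel@GSNP 3 (0.23) or D-gel@NP 3 (0.24), and mt-Rnr2 stayed called without L-gel@GSNP 2, at 0.26, but not with limma on all genes (0.40). Of the members not called, mt-Rnr1 (-0.42) was called without L-gel@GSNP 2 (-0.61), mt-Atp6 (-0.45) without L-gel@GSNP 1 (-0.70) and mt-Nd4l (0.17) without L-gel@GSNP 3 (0.87). mt-Co1 differed by 0.01 (95% interval -0.11 to 0.13).

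Ratios between members within a library do not depend on the scaling of libraries, and they showed that the members did not move in proportion. The number of mt-Rnr2 counts per 1000 mt-Co1 counts was 26.8 ± 0.27 (SD, n = 3) in non-SP, 35.6 ± 6.9 in PBS, 25.4 ± 1.9 for D-gel@NP, 19.4 ± 3.5 for L-gel@GSNP and 49.3 ± 6.3 for D-gel@GSNP. The D-gel@GSNP libraries (42.2, 54.3 and 51.3) lay above all libraries of non-SP, L-gel@GSNP and D-gel@NP and overlapped only with PBS, where PBS 3 had 43.6. The ratio in D-gel@GSNP was 1.84-fold that in non-SP and 2.54-fold that in L-gel@GSNP. Each of the 96 ratio comparisons set 3 libraries against 3, so no exact permutation p could be below 0.1.

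The 2 ribosomal RNAs lie next to each other on the genome and are parts of the same long transcript, yet their ratio differed. How the RNA was selected before sequencing was not given, and its part in the ribosomal RNA values was not tested. There were 477, 524 and 483 mt-Rnr1 counts per 1000 mt-Rnr2 counts in non-SP and 579, 483 and 555 in L-gel@GSNP. The values were 309, 312 and 307 in D-gel@NP, and 372, 334 and 307 in D-gel@GSNP. The PBS libraries had 272, 263 and, in PBS 3, 434. The D-gel@NP and D-gel@GSNP libraries were thus below all those of non-SP and L-gel@GSNP. The exact permutation p was 0.1 for D-gel@GSNP against either group and for D-gel@NP against L-gel@GSNP (0.143 adjusted over the 96 comparisons), and D-gel@NP against non-SP was not tested.

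Among the messenger RNAs, mt-Nd1 per 1000 mt-Co1 counts was lowest in PBS (368 ± 12) and highest in D-gel@GSNP (512 ± 24), with 462 ± 13 in non-SP, 400 ± 14 in L-gel@GSNP and 408 ± 11 in D-gel@NP. The 3 groups PBS, non-SP and D-gel@GSNP did not overlap. mt-Nd2 per 1000 counts of its neighbour mt-Nd1 was 724 ± 25 for D-gel@NP, 718 ± 27 for L-gel@GSNP, 602 ± 21 for PBS, 536 ± 9.2 for D-gel@GSNP and 516 ± 13 for non-SP. The L-gel@GSNP and D-gel@NP libraries (690 to 751) did not overlap with those of PBS (588 to 626), nor PBS with non-SP and D-gel@GSNP (502 to 542).

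mt-Tp per 1000 mt-Cytb counts was 7.28 ± 0.29 in PBS, 5.75 ± 0.38 for D-gel@NP, 4.97 ± 0.17 for D-gel@GSNP, 4.90 ± 0.22 for L-gel@GSNP and 4.48 ± 0.18 for non-SP. The PBS libraries (6.98 to 7.57) were above all others. By contrast, mt-Nd6, the only protein gene on the opposite strand, kept a narrow range against mt-Nd5, with group means of 225 to 241 per 1000. Even so, the D-gel@GSNP libraries (249.5, 237.3 and 236.0) lay above all those of non-SP, L-gel@GSNP and D-gel@NP, and the L-gel@GSNP libraries lay below those of PBS. The strand setting was not given, so the counts of mt-Nd6 and mt-Tp may hold reads of the other strand. Complex I subunit mt-Nd4 per 1000 mt-Co1 counts was also nearly level in non-SP (159 ± 1.5), PBS (158 ± 6.1) and D-gel@GSNP (164 ± 6.7), which overlapped, and was 191 ± 3.5 in D-gel@NP.

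**Figure D5:**
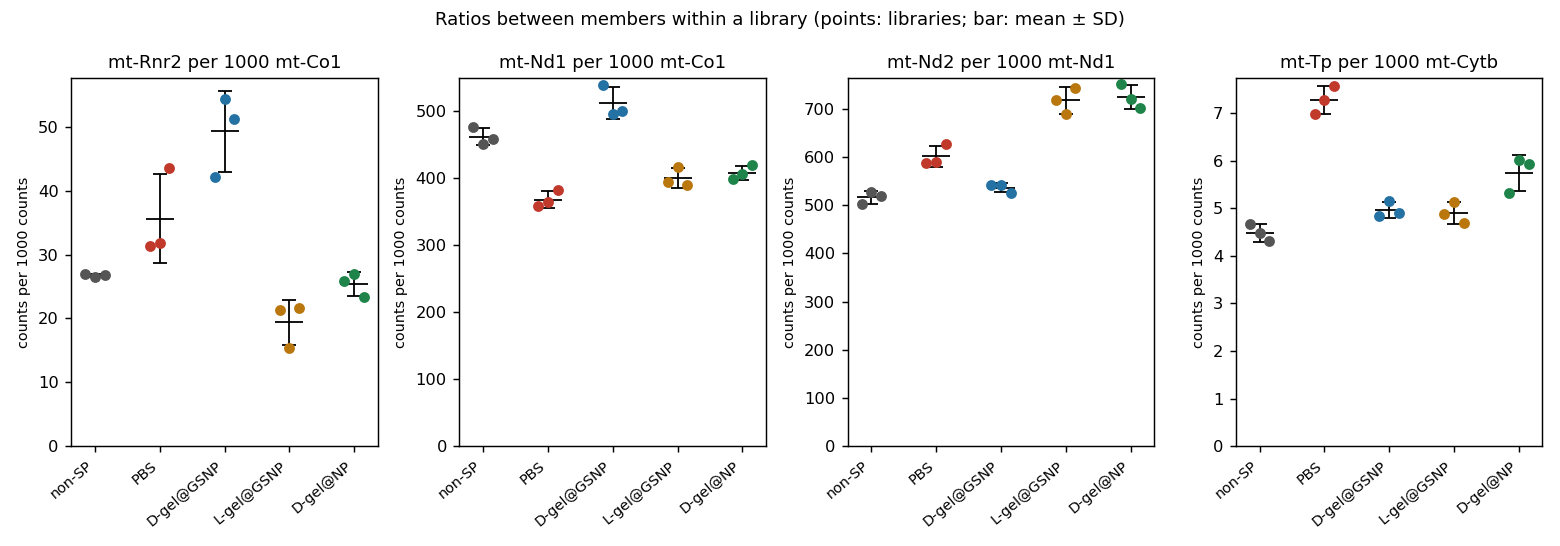
Counts of a member per 1000 counts of another member in the same library, for 4 pairs (linear axes from 0); points are libraries, bars are means and whiskers are 1 SD (n = 3). mt-Rnr2 and mt-Nd1 are highest relative to mt-Co1 in D-gel@GSNP (49.3 and 512), mt-Nd2 relative to mt-Nd1 is highest in L-gel@GSNP and D-gel@NP (718 and 724), and mt-Tp relative to mt-Cytb is highest in PBS (7.28).

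In the low tier, single libraries stood apart from their groups, and they were not the same libraries for each gene. mt-Nd4l had 7.63, 17.4 and 7.95 CPM in D-gel@NP and 6.03, 6.20 and 16.8 CPM in L-gel@GSNP, with D-gel@NP 2 and L-gel@GSNP 3 apart from the rest. mt-Co2 had 95.5, 181.1 and 111.4 CPM in D-gel@NP, where D-gel@NP 2 was again high, and 119.6, 122.5 and 118.3 CPM in L-gel@GSNP, where no library was. mt-Co3 was high in PBS 2 (139.4 against 75.2 and 77.8 CPM) and in L-gel@GSNP 3 (125.9 against 61.3 and 63.5 CPM).

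The nuclear copies had such libraries as well. Gm28661, the copy of mt-Co2, had 10957 counts in PBS 2 against 2886 and 3573 in the other PBS libraries, and Gm28439, the copy of part of mt-Nd4, had 13257 counts in L-gel@GSNP 3 and at most 1347 in any other library. L-gel@GSNP 3 is the deepest library. With the counts of the near-identical copy added to each of the 5 members, all were still called higher in PBS than in non-SP (log2 differences of at least 0.54) and lower in D-gel@GSNP than in PBS (-1.46 to -0.43). Other comparisons changed. mt-Co2 in D-gel@NP against PBS (-0.41) became called at -0.79, and mt-Co3 in D-gel@GSNP against D-gel@NP (-0.44) at -0.68. In L-gel@GSNP against PBS, mt-Atp6 (-0.22) and mt-Nd3 (-0.23) became called at -0.39 and -0.32. mt-Nd4l, not called in either setting, turned from 0.20 to -0.17 in L-gel@GSNP against PBS and from 0.37 to -0.03 in D-gel@NP against PBS.

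Nuclear genes of the same complexes were called in both directions in PBS against non-SP, where 27.6% of all genes were called higher and 26.1% lower. Of 36 tested nuclear subunits of complex I, 7 were higher and 5 lower, with a median log2 difference of 0.03, and of 9 of complex III 2 were higher and 4 lower (-0.12). Of 11 of complex IV, 5 were higher (0.17), and none was called lower by edgeR, by DESeq2 or at an unadjusted p under 0.05, and of 15 of ATP synthase 3 were higher and 9 lower (-0.21). The 4 subunits of complex II, which has no mitochondrially encoded part, had a median of -0.02. None of the 4 was called by edgeR or DESeq2, and 1 was lower at an unadjusted p under 0.05. Cox6a1 and Cox6b1 of complex IV rose by 0.41 and 0.30, and Atp5a1, a catalytic-part subunit of ATP synthase, fell by 0.47, on the log2 scale.

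Genes that act on mitochondrial RNA are read against the same shares. Tfam, which packages the genome and starts its transcription, had 75.9 ± 4.0 CPM in non-SP and 59.9 ± 3.1 CPM in PBS, and fell by 0.34 (edgeR adjusted p = 1.61e-05). Polrmt, the mitochondrial RNA polymerase, fell by 0.24, while Mterf3 rose by 0.19, and these were the 3 calls among 10 transcription genes. Of 27 genes of RNA processing and stability, 12 were lower and 2 higher (median -0.18), among the lower Lrpprc, which stabilises mitochondrial messenger RNAs (162.9 ± 2.7 against 123.0 ± 5.6 CPM), Elac2, which cuts the 3' ends of transfer RNAs (-0.64), Grsf1 (-0.47) and Tbrg4 (-0.84). Of 12 translation factors 5 were lower, among them Gfm1 (-0.70), Tsfm (-0.65) and Guf1 (-0.49), and 1 was higher.

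Of 12 genes of mitochondrial DNA replication, 3 were higher and 4 lower, with Polg, the DNA polymerase, at -0.55, Mgme1 at -0.71 and Tk2 at 0.58. Among 10 regulators of mitochondrial biogenesis, Nrf1 (-0.57), Gabpb1 (-0.57) and Pprc1 (-0.76) were among 5 lower, and 1 was higher. Of 12 mitophagy genes 7 were higher and 3 lower, with Sqstm1 at 1.17, Pink1 at 1.08 and Phb2 at -0.65. All 3 tested RNAs that stay in the nucleus were higher in PBS than in non-SP: Neat1 by 2.00, Malat1 by 1.31 and Kcnq1ot1 by 0.36, and the part of RNA quality in the members' differences was not tested.

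In L-gel@GSNP and D-gel@NP against PBS, 24.1% and 16.3% of all genes were called lower. Of the nuclear subunits, those lower were 25 and 20 of 36 of complex I, 7 and 5 of 9 of complex III, 11 and 10 of 11 of complex IV, and 13 and 11 of 15 of ATP synthase. All 4 of complex II were lower in both. In D-gel@GSNP against PBS, where 27.4% of all genes were called higher and 27.5% lower, the counts were 5 higher and 7 lower in complex I, 4 and 2 in complex III, 0 and 5 in complex IV (0 higher also by DESeq2 or at an unadjusted p under 0.05 in edgeR), and 9 and 2 in ATP synthase, whereas all 16 tested members were lower. Against L-gel@GSNP, where 30.5% of all genes were higher, D-gel@GSNP had 26 of 36 complex I subunits and all 15 of ATP synthase higher, while 12 of 16 members were lower. In D-gel@GSNP against non-SP, only 0.417% of all genes were called. Of the 161 tested genes of all these lists, none was called there by the main edgeR test or by DESeq2, which is near that share. At an unadjusted p under 0.05, 4 were higher and 6 lower.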

How the data were processed

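RNA of GL261 cells had been sequenced in 15 libraries, 3 in each of 5 groups. The submitters' processing notes name fastp 0.22.0, HISAT2 2.1.0, featureCounts and DESeq2, and the mouse build GRCm39. The authors deposited raw counts per gene and FPKM values, which differ from count per gene length and library total by a relative 6.06e-07 at most. Between 62.3% and 66.4% of the counts from 1 to 20 were even in each library, so the unit counted may not be 1 fragment.

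Symbols were matched to 32434 of 34259 gene IDs, and 1825 were not matched. Library totals ran from 16626413 to 98102794 counts. The counts were tested with edgeR 4.0.16 (R 4.3.3) by its quasi-likelihood test on all 15 libraries. Low counts were filtered by group, libraries were scaled with TMM factors, and p-values were adjusted by Benjamini and Hochberg over 17497 genes. The biological coefficient of variation was 8.06%. CPM values carry the TMM factors. Shares and ratios were compared with two-sided exact permutation tests. The test was checked on simulated counts. Alternatives were other scalings, filters and fits, limma 3.58.1 on log2(FPKM + 1), DESeq2 1.42.0, and leaving out each library. Sequences and copies come from GENCODE M21 transcripts, which are of another build, compared with blastn 2.17.0. No coordinates were used.

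The members and lists were chosen with earlier results of these data known. All members were to be named, with up to 3 genes of each list that had the lowest adjusted p in PBS against non-SP, others where a role called for them, and the 5 nuclear genes most alike over the libraries. Of 167 listed pathway genes, 164 were in the table.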

Additional observations from a re-analysis of the deposited data

How the results depend on the processing

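Under the alternatives run, no called difference of a member changed direction, and signs changed only among differences that were not called. Of the values for single members, 2452 kept their side of the threshold, 57 lost a call and 51 gained one. The same held for 5723 values of other named genes, with 157 calls lost and 40 gained. The comparison of D-gel@GSNP with non-SP moved most. Its 73 called genes became 141 with library totals and no factors, 239 with no filter, 34 with the replicate block, 282 with only the 6 libraries compared, 194 with DESeq2, and 25, 26 and 14 with limma on log2(FPKM + 1), on log2(FPKM + 0.1) and on all genes. Leaving out 1 library gave 6 to 140. Its 1 called member became 6 with no filter, 2 with only the 6 libraries, and 1 to 2 without 1 library. In D-gel@NP against L-gel@GSNP, the 2 called members became 7 with no filter, 1 with limma on all genes, and 1 to 3 without 1 library. The cause was not tested. The share of counts on members in D-gel@GSNP minus non-SP ranged from -0.0400 to 0.234 percentage points over left-out libraries, and it reversed to -0.0400 without D-gel@GSNP 1. As a percent of all FPKM, the difference in PBS minus non-SP was 7.20 percentage points, against 3.11 as a percent of counts. The other counts of called members and genes stayed within 1.5 times under each alternative.

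The deviations of same-numbered libraries correlated between -0.022 and 0.045, and not every library was closest to its own number. No pairing by number was thus seen, but such correlations cannot show whether same-numbered libraries were handled together. With the replicate block the 73 genes called in D-gel@GSNP against non-SP became 34, and no other count of calls moved by over 1.5 times. Among single members, the block ended 1 call, that of mt-Atp6 in D-gel@NP against PBS (-0.64). Adding the counts of the near-identical copies and leaving out D-gel@NP 1, the shallowest library, were chosen after seeing the data.

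These limits apply to all values. Members with 3 libraries a group rest on 3 values, 5 members of the low tier share nearly all of their sequence with nuclear copies, so their counts are uncertain, and intervals cover the spread between libraries only.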

Other observations

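The nuclear genes whose log2 CPM was most like that of the summed members over the 15 libraries were Cd24a (Pearson r = 0.991), Emp1 (0.990), Nptn (0.987), Sgk1 (0.982) and Chmp3 (0.981). The points share their library and its scaling, and fall into the groups described, so the r values are a description. Cd24a, a small surface glycoprotein, had group means of 309.9 CPM in non-SP, 532.3 in PBS, 316.3 for D-gel@GSNP, 439.2 for D-gel@NP and 435.8 for L-gel@GSNP. Emp1, a membrane protein, had 520.7, 1252, 547.2, 880.6 and 855.9 CPM in the same order of groups. Sgk1, a kinase induced by serum and glucocorticoids, had 327.4, 533.1, 347.6, 468.3 and 432.5 CPM.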
